A study of Mus musculus with 12 samples.

Results

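The genes described here carry the unfolded protein response and the integrated stress response in liver. They were chosen as a list of 36 named genes, 16 of them targets or regulators of ATF4 that mostly serve amino acid supply, 17 of them chaperones and other folding or disposal factors of the endoplasmic reticulum (ER), and 3 of them the sensors Ern1 and Eif2ak3 with the transcription factor gene Xbp1. Each gene was read from the probe set with the highest mean among those that carry its symbol alone, which measured 35 of the 36 out of 12393 genes in all. Gdf15 had no probe set of this kind and was not analysed here. Liver RNA was hybridised to 12 Affymetrix mouse arrays, 3 from each of 4 groups. WT mice and mice without functional retinoid X receptor alpha in hepatocytes (KO) ate a normal diet, and WT_RA and KO_RA mice ate a diet with 150 mg of retinoic acid (RA) per kg for 7 days. The mice were males on a C57BL/6 background and the WT mice were 12 weeks old. In KO mice the fourth exon of floxed Rxra was removed by Cre recombinase under the albumin promoter, which is active in hepatocytes, and a shortened protein that cannot bind DNA but keeps its ligand-binding domain is still made. Levels and differences below are on the log2 scale of the deposited values, with errors as SD for levels and SE for differences (n = 3 arrays per group).

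Proteins that enter the ER are folded with the help of chaperones such as BiP, encoded by Hspa5. When unfolded proteins build up, the sensors IRE1 (Ern1), PERK (Eif2ak3) and ATF6 act, IRE1 through the splicing of Xbp1 mRNA, and genes of chaperones, disulfide isomerases and ER-associated degradation are induced. PERK also phosphorylates the initiation factor eIF2, as other kinases do when amino acids are short, which lowers general translation but raises translation of Atf4, whose protein induces genes of amino acid synthesis and uptake. The liver secretes much of the plasma protein and handles much of the amino acid supply, so both arms are well known there. An mRNA level of Xbp1 or Atf4 does not report the splicing or translation through which these factors act.

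The promoter sequences of both arms are shown first because each arm is known for an element of its own. RefSeq promoter windows (build GRCm38.p6, 250 bases before to 50 bases after a start) were at hand for 33 of the 36 genes, and not for Manf, Slc7a5 and Hyou1. The ER stress response element was searched on both strands as CCAAT and CCACG with 9 bases between. It lay in the windows of 7 of 15 ER genes, in 0 of 15 ATF4 genes and in 0 of the 3 genes of the sensors and Xbp1, against 0.119% of all 32851 windows. Its second part CCACG overlaps it and alone is common, at 32.8% of all windows. All 8 copies in the 7 genes are written below on the strand that reads CCAAT first, 5′ to 3′, with both parts in capitals and 10 bases on each side.
Hspa5, chr2:34772015-34772053, + strand: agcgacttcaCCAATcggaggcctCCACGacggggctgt
Hsp90b1, chr10:86705628-86705666, - strand: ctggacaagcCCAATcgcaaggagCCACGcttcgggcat
Hsp90b1, chr10:86705523-86705561, + strand: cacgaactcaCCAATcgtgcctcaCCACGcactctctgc
Calr, chr8:84847065-84847103, + strand: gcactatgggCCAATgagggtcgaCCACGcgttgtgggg
Canx, chr11:50325790-50325828, - strand: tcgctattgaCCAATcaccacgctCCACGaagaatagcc
Dnajc3, chr14:118937817-118937855, + strand: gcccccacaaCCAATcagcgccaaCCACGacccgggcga
Creld2, chr15:88819510-88819548, - strand: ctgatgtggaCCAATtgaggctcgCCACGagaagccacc
Pdia6, chr12:17266481-17266519, + strand: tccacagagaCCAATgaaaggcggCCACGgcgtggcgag

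In Hspa5 the element lay from base -65 to base -47 before the start, within the upstream promoter at chr2:34771840-34772089 on the + strand, printed here because Hspa5 is the reference gene of the ER arm.
Hspa5 promoter: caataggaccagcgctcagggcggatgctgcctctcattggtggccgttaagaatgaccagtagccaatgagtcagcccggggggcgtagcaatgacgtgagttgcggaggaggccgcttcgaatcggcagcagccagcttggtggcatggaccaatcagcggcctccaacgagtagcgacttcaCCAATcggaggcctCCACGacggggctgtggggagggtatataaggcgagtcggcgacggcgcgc
TGACGTG, a core of XBP1 and ATF6 sites, was found in Hspa5 alone among the 33 genes and in 2.01% of all windows.

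The C/EBP-ATF element, at which ATF4 pairs with a C/EBP factor, was searched on both strands as TGATGNAA. It lay in 5 of 15 ATF4 genes (Asns, Atf3, Chac1, Slc7a11 and Trib3), in 1 of 15 ER genes (Herpud1) and in 3.97% of all windows. TTGCATCA, which is the same element with a fixed base read on the other strand, was found in Atf3, Chac1, Slc7a11 and Herpud1 and in 0.895% of all windows. The copies before the start are written on the strand that reads TGATG, in capitals.
Asns, chr6:7693215-7693242, - strand: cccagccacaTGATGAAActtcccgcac
Atf3, chr1:191183426-191183453, + strand: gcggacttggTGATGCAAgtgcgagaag
Chac1, chr2:119351039-119351066, - strand: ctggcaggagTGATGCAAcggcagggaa
Slc7a11, chr3:50443662-50443689, - strand: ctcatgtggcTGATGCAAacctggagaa
Slc7a11, chr3:50443643-50443670, + strand: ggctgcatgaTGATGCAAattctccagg
Herpud1, chr8:94386307-94386334, - strand: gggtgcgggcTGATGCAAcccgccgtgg

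In Asns, the gene with the clearest change below, the element lay from base -23 to base -16 in the promoter at chr6:7693210-7693459 on the - strand.
Asns promoter: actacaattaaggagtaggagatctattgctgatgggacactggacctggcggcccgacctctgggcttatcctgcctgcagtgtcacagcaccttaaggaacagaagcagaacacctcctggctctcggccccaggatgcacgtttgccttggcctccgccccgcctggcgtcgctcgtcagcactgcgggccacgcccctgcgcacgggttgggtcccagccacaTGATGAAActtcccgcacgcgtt
A match of letters is a description and not evidence of binding in these livers.

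Array medians lay between 6.26 and 6.35, and the lower quartiles between 4.87 and 5.02. Cyp26a1, which encodes an enzyme that degrades RA, read 7.49 to 8.36 in WT and 8.43 to 8.69 in KO livers, against 12.4 to 12.6 in WT_RA and 11.2 to 11.4 in KO_RA livers. Rxra itself read 10.4 to 10.8 in WT and 10.1 to 10.8 in KO livers, and since a shortened transcript remains and the position of its probe set was not given in the sources used here, this does not check the genotype. Arrays WT_RA 3 and KO 1 stood apart, with a 3′ control of beta-actin (Actb) at 9.40 and 9.12 against 12.1 to 12.9 on the other 10 arrays. Summed hepatocyte markers lay at 16.2 to 16.4 in every group. Summed markers of Kupffer cells and macrophages, 14 of 15 measured, lay at 11.01 to 11.26 in WT, 11.8 to 12.7 in WT_RA, 11.5 to 13.7 in KO and 11.7 to 11.9 in KO_RA livers. Sums for plasma and B cells, where 8 of 10 markers were measured, ranged from 10.1 to 10.9 over all groups, and those for liver endothelium, with 8 of 8 measured, were 10.6 to 10.9 in WT, 10.6 to 10.7 in WT_RA, 11.03 to 11.23 in KO and 10.7 to 10.8 in KO_RA livers. In whole liver, more or fewer cells of a type and more or less RNA per cell cannot be told apart.

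**Figure D1:**
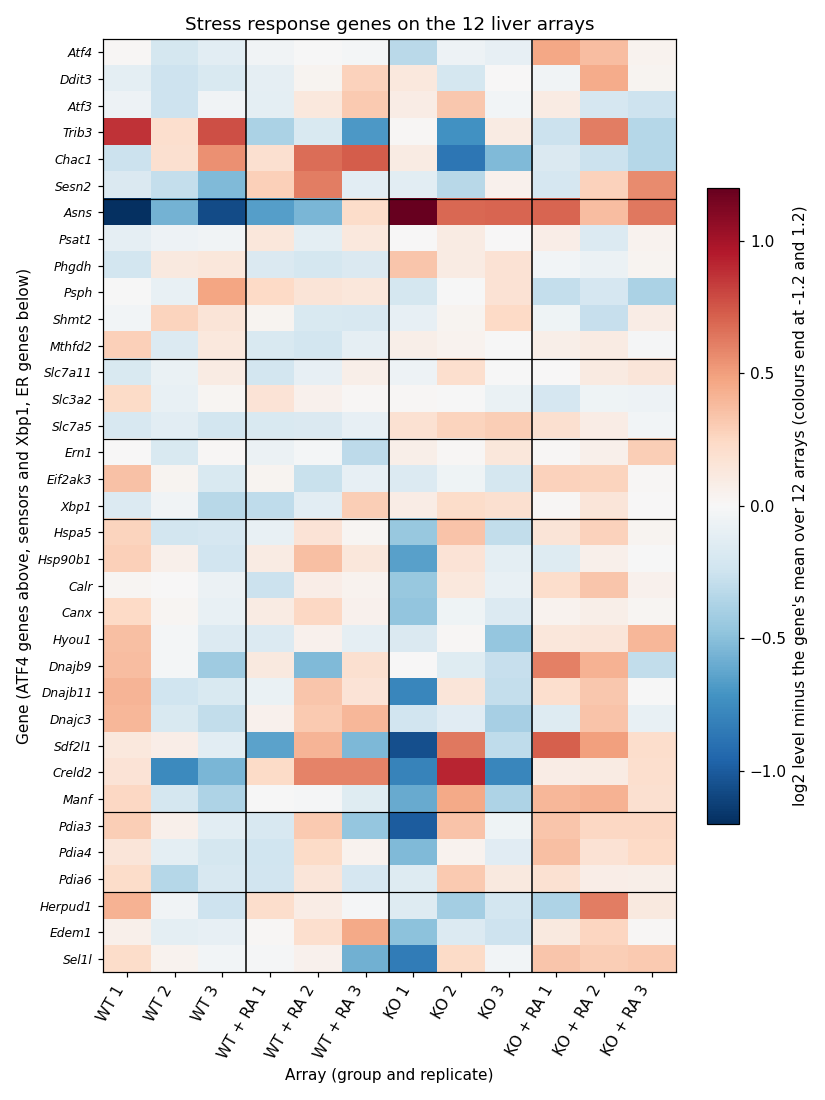
Log2 level of each of the 35 genes on each array (columns, by group and replicate) minus the gene's mean over the 12 arrays, red above and blue below it. Asns was below its mean on all 3 WT arrays and above it on all KO and KO_RA arrays, and most ER genes were below their mean on KO 1.

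The first comparison asked how loss of hepatocyte RXRα changed these genes on the normal diet. Asns, the enzyme that makes asparagine from aspartate and glutamine, rose 4.30-fold in KO livers, and Slc7a5, the catalytic chain of the large neutral amino acid carrier LAT1, rose 1.35-fold. No ER gene passed the test. By limma with Benjamini-Hochberg adjustment over all genes, 2 of 35 genes (5.71%) were called at an adjusted p under 0.05, against 1.32% of all genes. At an unadjusted p under 0.05 there were 6 genes (17.1%, against 16.3% of all genes), and the arrays of the 2 groups did not overlap for 7 genes (20.0%, against 20.1%), shares close to those of all genes.

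Asns read 6.28, 7.58 and 7.08 in WT livers and 9.56, 8.84 and 8.85 in KO livers. Every KO array was above every WT array, and WT 1 was the lowest of all 12. The difference was 2.10 ± 0.32 (SE, n = 3, 95% interval 1.41 to 2.80, adjusted p = 0.00815). A further Asns probe set read 3.34, 5.16 and 3.74 in WT and 7.997, 7.15 and 6.80 in KO livers and differed by 3.23 (adjusted p = 0.0187 over all probe sets). The further probe set showed the same order of groups from a lower WT level. Over the alternatives in processing Asns stayed called, with differences from 1.43 to 2.67 and adjusted p-values of at most 0.0423. Kupffer cell markers were higher in KO livers too, 14 of 14 of them, and their part was not tested. The Asns difference was 1.87 without KO 1, the KO array with the low Actb control, and 2.23 without KO 2.

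Slc7a5 read 6.69, 6.76 and 6.66 in WT and 7.07, 7.15 and 7.18 in KO livers, again with no overlap. It differed by 0.43 ± 0.08 (SE, n = 3, 95% interval 0.25 to 0.61, adjusted p = 0.0288). This call was lost without WT 1 (adjusted p = 0.0868), WT 2 (0.0803), WT 3 (0.0715), KO 2 (0.0899) or KO 3 (0.0866), and in a model of the WT and KO arrays alone (0.107). It was also lost with a replicate block. Slc3a2, the heavy chain that pairs with it at the membrane, differed by -0.08 ± 0.10 and Slc7a11, the cystine carrier, by 0.10 ± 0.11, so the change of the light chain had no counterpart past the test in its partner.

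The other enzymes of the ATF4 arm did not pass. Psat1, of serine synthesis, read 3.53, 3.58 and 3.60 in WT and 3.65, 3.74 and 3.65 in KO livers, without overlap but among the dimmest values of each array, and differed by 0.11 ± 0.09 (95% interval -0.10 to 0.31, adjusted p = 0.576). Phgdh, the first enzyme of serine synthesis, differed by 0.19 ± 0.10 and Psph, the last, by -0.14 ± 0.14. Shmt2 and Mthfd2, of mitochondrial folate metabolism, differed by -0.07 ± 0.12 and -0.05 ± 0.11. The 95% intervals of these genes thus held both signs while that of Asns did not.

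Among the regulators, Trib3, a pseudokinase that restrains ATF4, had lower readings in KO livers. Its levels were 7.67, 7.00 and 7.57 in WT and 6.81, 6.07 and 6.90 in KO livers, with every KO array lower. The difference was -0.82 ± 0.28 (95% interval -1.43 to -0.20, adjusted p = 0.186). Atf3, a factor induced by ATF4, read 5.25, 5.06 and 5.27 in WT and 5.40, 5.63 and 5.28 in KO livers and differed by 0.25 ± 0.14 (95% interval -0.05 to 0.54, adjusted p = 0.384). Chac1, a glutathione-degrading enzyme, differed by -0.59 ± 0.25, Ddit3, which encodes CHOP, by 0.16 ± 0.14, Sesn2, a leucine sensor of the mTORC1 pathway, by 0.19 ± 0.21 and Atf4 by -0.05 ± 0.12. None of them passed, and the median over the 15 ATF4 genes was 0.10 against 0.02 over all genes. It was 0.0238 with the mean of a gene's probe sets and 0.0236 without KO 2.

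Among the sensors and Xbp1, Xbp1 read 11.8, 11.9 and 11.6 in WT and 12.1, 12.2 and 12.2 in KO livers, again without overlap. It differed by 0.35 ± 0.14 (95% interval 0.05 to 0.64, adjusted p = 0.237). Ern1 differed by 0.13 ± 0.11 and Eif2ak3 by -0.21 ± 0.14.

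The 17 ER genes had a median difference of -0.24, with 2 of 17 positive, against 54.9% positive among all genes. Edem1, which leads misfolded glycoproteins to disposal, was the ER gene without overlap, at 10.07, 9.89 and 9.91 in WT and 9.52, 9.84 and 9.76 in KO livers (-0.25 ± 0.13, 95% interval -0.52 to 0.02, adjusted p = 0.343). Hspa5 differed by -0.08 ± 0.19, Hsp90b1, the ER form of HSP90, by -0.24 ± 0.19, and the lectin chaperones Calr and Canx by -0.13 ± 0.14 and -0.29 ± 0.12. The median rested on array KO 1, since without it the median of the ER genes was 0.01 and 9 of 17 differences were positive. KO 1 is also an array with a low Actb control, whose part was not tested.

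**Figure D2:**
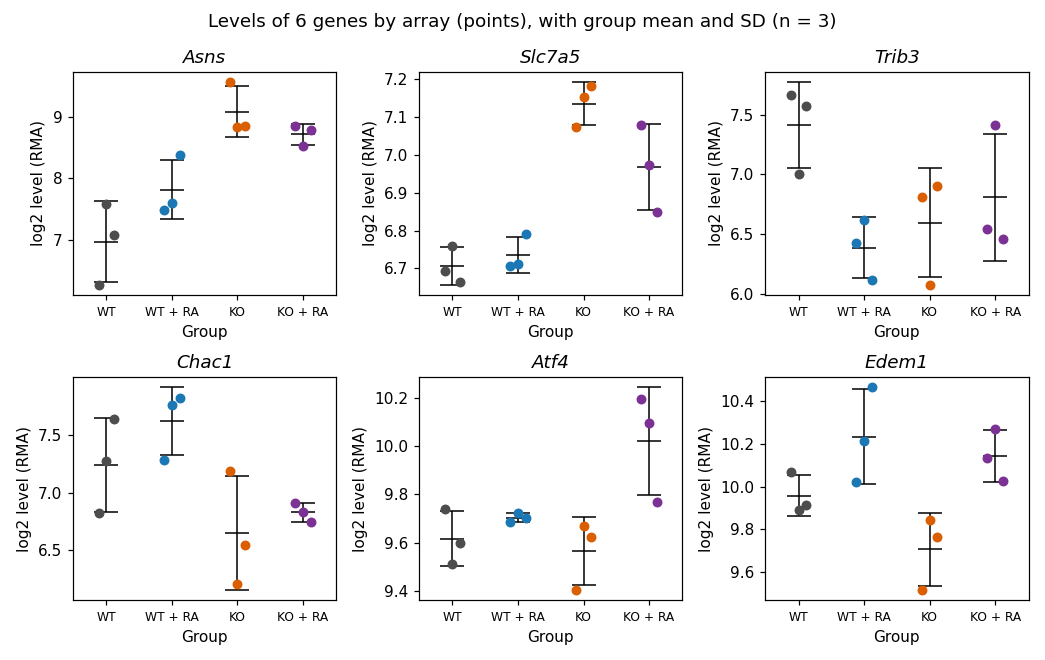
Log2 levels of Asns, Slc7a5, Trib3, Chac1, Atf4 and Edem1 by group (points are arrays, bars the mean and SD, n = 3, each panel with its own axis). Asns and Slc7a5 lie higher in both KO groups than in both WT groups, and Trib3 is highest in WT.

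The second comparison asked what dietary RA did in WT livers. No gene of either arm was called, against 1.27% of all genes. At an unadjusted p under 0.05 limma gave 6 genes (17.1%, against 11.7% of all genes), and 4 genes had no overlap (11.4%, against 16.6%). Trib3 read 6.42, 6.62 and 6.11 in WT_RA livers, all below the lowest WT array at 7.00, a difference of -1.03 ± 0.28 (adjusted p = 0.121). A further Trib3 probe set read 6.99, 6.85 and 6.98 in WT against 5.80, 5.997 and 5.39 in WT_RA livers and passed the test over all probe sets at -1.21 ± 0.21 (adjusted p = 0.0276). Asns read 7.48, 7.60 and 8.37 in WT_RA livers, so WT_RA 1 lay below WT 2 and the groups overlapped, and it differed by 0.84 ± 0.32 (adjusted p = 0.291). Sesn2 differed by 0.58 ± 0.21 (adjusted p = 0.259) and Chac1 by 0.37 ± 0.25. The median was 0.05 for the ATF4 genes and 0.06 for the ER genes, where 11 of 17 differences were positive against 47.3% among all genes. Kupffer cell and macrophage markers were higher in WT_RA livers for 14 of 14. Of these, 2 were called by limma (against 1.27% of all genes), Cd163 (1.49 ± 0.19, adjusted p = 0.00299) and Cd14 (1.12 ± 0.24, adjusted p = 0.0452). The part of these markers was not tested.

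Hyou1, an ER chaperone of the HSP70 kind that exchanges nucleotides on BiP, was read differently by its probe sets. The one with the highest mean read 10.20, 9.82 and 9.67 in WT and 9.67, 9.89 and 9.73 in WT_RA livers and differed by -0.13 ± 0.15 (adjusted p = 0.840). A further probe set read 8.31, 8.54 and 8.58 in WT but 7.44, 7.67 and 7.41 in WT_RA livers, a difference of -0.97 ± 0.14 (adjusted p = 0.00923). The third, at 5.73, 5.32 and 5.22 against 4.46, 4.89 and 4.34, differed by -0.86 ± 0.18 (adjusted p = 0.0507). Only the first of the 3 overlapped between these groups, so the size and the call for Hyou1 in WT_RA livers depend on the probe set chosen, though all 3 differences were negative.

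The third comparison asked what dietary RA did in KO livers. All 17 ER genes had positive differences, from 0.02 for Pdia6 to 0.71 for Sdf2l1, with a median of 0.38 against -0.03 over all genes, of which 43% were positive. No single gene was called, against 0.5% of all genes. At an unadjusted p under 0.05 limma gave 10 of 35 genes (28.6%, against 14% of all genes), and 8 had no overlap (22.9%, against 20.9%). Of the ER genes, 7 of 17 were higher at an unadjusted p under 0.05 (41.2%, against 6.12% of all genes in that direction) and 5 of 17 were higher without overlap (29.4%, against 8.58%).

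Pdia4, a disulfide isomerase, read 8.25, 8.82 and 8.64 in KO and 9.14, 8.95 and 9.02 in KO_RA livers, every KO_RA array being higher. It differed by 0.46 ± 0.16 (adjusted p = 0.225), while a further, dimmer Pdia4 probe set differed by -0.14 ± 0.14. Edem1 read 10.13, 10.27 and 10.03 in KO_RA livers, all above the KO values given before, a difference of 0.44 ± 0.13 (adjusted p = 0.149) that missed the test. Sel1l, an adaptor of the ER-associated degradation ligase, read 8.14, 9.21 and 8.95 against 9.32, 9.28 and 9.29. The KO_RA arrays lay close together above every KO array, and Sel1l differed by 0.53 ± 0.23 (adjusted p = 0.341).

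Hyou1 differed by 0.43 ± 0.15 (adjusted p = 0.233) at 9.67, 9.85 and 9.38 in KO and 9.98, 9.99 and 10.24 in KO_RA livers. Dnajb11 and Dnajb9, J-domain partners of BiP, differed by 0.48 ± 0.23 and 0.38 ± 0.26, and Dnajc3, a J-domain protein also known as P58IPK, by 0.29 ± 0.18. Manf, a secreted protein of the ER stress response, differed by 0.51 ± 0.23, and Pdia3, the isomerase that works with calnexin and calreticulin, by 0.51 ± 0.28. Hspa5 itself differed by 0.29 ± 0.19 (adjusted p = 0.516), with KO at 11.07, 11.87 and 11.23 and KO_RA at 11.67, 11.80 and 11.55. Its KO arrays spanned the KO_RA arrays because KO 2 was the highest of the 6. Creld2, an isomerase-like ER protein, was spread in the same way, at 7.68, 9.40 and 7.70 against 8.57, 8.58 and 8.69.

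Part of this pattern lay in single KO arrays. KO 1 read lowest of all 12 arrays for 12 of 17 ER genes, and for 1 of 15 ATF4 genes, while KO 2 read highest of all 12 for 5 ER genes. KO 1 was below every KO_RA array for 15 ER genes, KO 3 for 13 and KO 2 for 6. Such counts were not made over all genes, so they are not read as a trait of the ER genes. Without KO 1 the median was 0.24, with 15 of 17 positive, and 2 of 17 were higher at an unadjusted p under 0.05 (11.8%, against 4.22% of all genes in the same fit). Without KO 2 it was 0.53, with 17 of 17 positive, and without KO 3 it was 0.36. KO 1 also had a low Actb control and KO 2 the highest Kupffer markers, which were lower in KO_RA than in KO livers for 13 of 14 markers, none of them called. Endothelial markers were lower there for 7 of 8, in a comparison where 43% of all genes had positive differences. Of the 8, 2 passed by limma (against 0.5% of all genes), Tek (-0.99 ± 0.15, adjusted p = 0.0184) and Fcgr2b (-0.46 ± 0.09, adjusted p = 0.0419). The part of these markers and of the control was not tested.

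With RA in KO livers, the ER genes with the stress response element printed above had smaller differences than those without. Across the 7 genes with it, differences ran from 0.02 to 0.36 with a median of 0.29. Across the 8 without it in their windows, they ran from 0.38 to 0.71 with a median of 0.47. This split was noticed after the values were seen and has no test, and without KO 1 the ranges overlapped (-0.10 to 0.30 and 0.13 to 0.45). With RA in WT livers the medians stood the other way round, at 0.0878 with the element and 0.00413 without it, and the ranges overlapped. They were -0.13 with it and -0.28 without it for KO against WT, which share the KO arrays, and -0.09 and 0.28 for KO_RA against WT_RA. In both the ranges overlapped.

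The 15 ATF4 genes had a median of -0.05 with 7 of 15 positive, and the median turned to 0.0434 when dim genes were left out. Of the 6 regulators among them 5 were positive. Atf4 read 9.40, 9.67 and 9.62 in KO and 10.20, 10.10 and 9.77 in KO_RA livers. It had no overlap and differed by 0.45 ± 0.12 (adjusted p = 0.106). Sesn2 differed by 0.35 ± 0.21, Trib3 by 0.21 ± 0.28, Chac1 by 0.18 ± 0.25 and Ddit3 by 0.17 ± 0.14, while Atf3 differed by -0.25 ± 0.14. Of the enzymes and carriers, Asns differed by -0.37 ± 0.32, Phgdh by -0.23 ± 0.10, Psph by -0.27 ± 0.14 and Slc7a5 by -0.17 ± 0.08, none past the test. Eif2ak3 differed by 0.33 ± 0.14, Ern1 by 0.05 ± 0.11 and Xbp1 by -0.12 ± 0.14. The comparisons of KO with WT and of KO_RA with KO share the 3 KO arrays, so opposite signs in them are not separate observations.

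**Figure D3:**
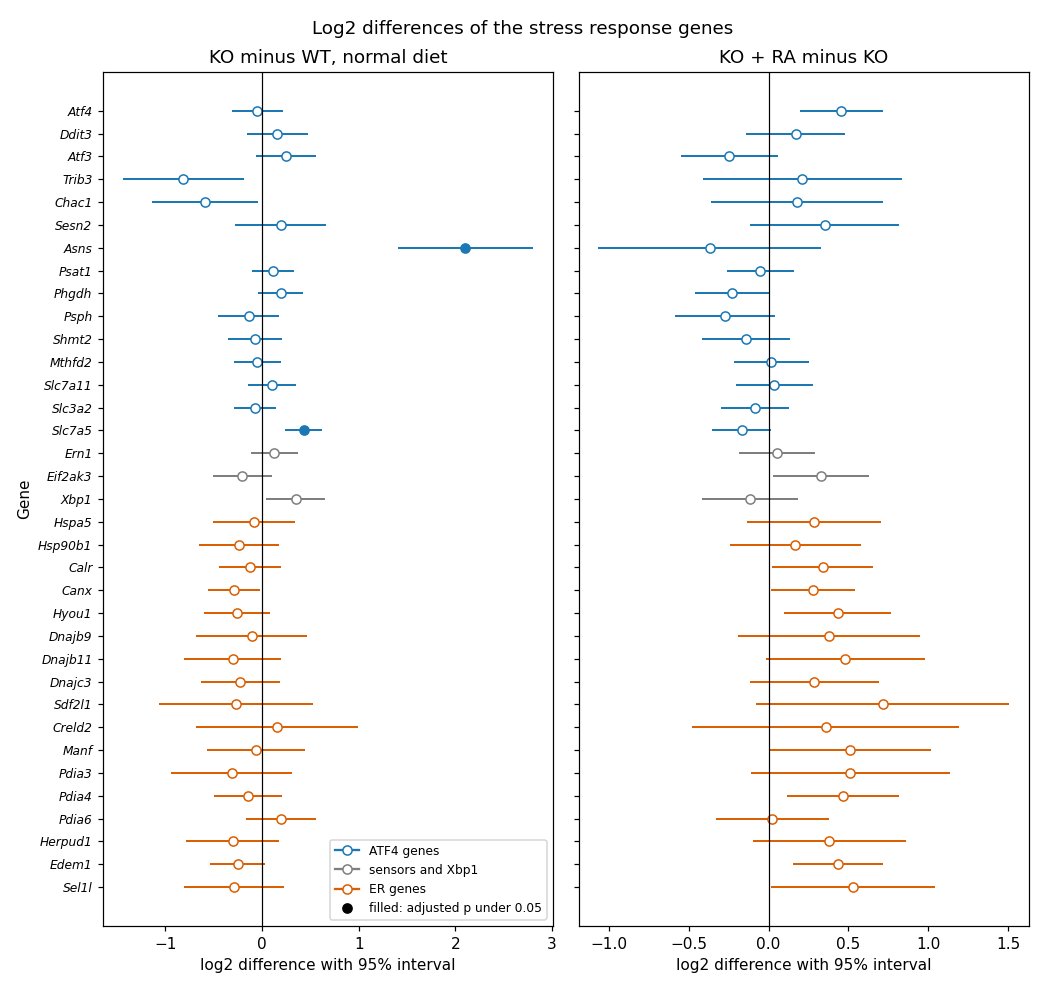
Log2 difference of each gene with its 95% interval for KO minus WT (left) and KO_RA minus KO (right), each panel with its own axis. The left panel has filled points for Asns and Slc7a5, which passed the test, while on the right all 17 ER genes (orange) lie above 0 and none passed.

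The fourth comparison set KO_RA against WT_RA livers. It had more calls in all (3.95% of all genes) but none among the 35 genes. At an unadjusted p under 0.05 limma gave 7 genes (20.0%, against 17.8% of all genes). Arrays did not overlap for 14 genes (40.0%, against 25.6%), 9 of them higher and 5 lower in KO_RA livers. Asns read 8.84, 8.52 and 8.78 against 7.48, 7.60 and 8.37, by 0.90 ± 0.32 (adjusted p = 0.153), and Slc7a5 read 7.08, 6.97 and 6.85 against 6.71, 6.71 and 6.79, by 0.23 ± 0.08 (adjusted p = 0.152). Both genes kept the order seen on the normal diet, with a smaller difference that did not pass. Chac1 read 6.91, 6.83 and 6.74 against 7.28, 7.75 and 7.81, by -0.79 ± 0.25 (adjusted p = 0.107). Psph read 5.68, 5.77 and 5.59 against 6.21, 6.12 and 6.11, by -0.46 ± 0.14 (adjusted p = 0.0956). Chac1 and Psph passed in a model of these 6 arrays alone.

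Over the ER genes the median was 0.21, with 12 of 17 positive, against 0.01 and 52.4% over all genes. Manf read 10.38, 10.40 and 10.18 against 9.98, 9.96 and 9.84 and did not overlap (0.39 ± 0.23, adjusted p = 0.408). Hsp90b1 went the other way at 10.89, 11.11 and 11.04 against 11.15, 11.41 and 11.19 (-0.23 ± 0.19, adjusted p = 0.565). The further probe sets of Hyou1 were higher in KO_RA livers by 1.28 ± 0.14 (adjusted p = 0.000832) and 1.02 ± 0.18 (adjusted p = 0.0127), while the first differed by 0.30 ± 0.15 (adjusted p = 0.318). All 3 had the same sign here.

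Whether RA acted differently in the 2 genotypes was tested as the difference between its effects. No member passed, against 0.00807% of all genes, which is 1 gene. At an unadjusted p under 0.05 limma gave 7 genes (20.0%, against 11.7% of all genes). Among the probe sets used here Trib3 had the largest value, 1.24 ± 0.40 (adjusted p = 0.271). Its RA differences were -1.03 in WT and 0.21 in KO livers. Asns had -1.21 ± 0.45 (adjusted p = 0.329) and Hyou1 0.57 ± 0.21 (adjusted p = 0.335). Further probe sets of Hyou1 gave 1.61 ± 0.25 and 1.23 ± 0.19 (adjusted p = 0.0758 for each by limma over all probe sets). A further probe set of Asns gave -2.04 ± 0.73 (adjusted p = 0.304). For the ER genes 16 of 17 were positive with a median of 0.34, against 45% positive and a median of -0.02 over all genes. Without KO 1 the median of the ER genes fell to 0.21 with 14 of 17 positive. This difference contains that of KO_RA against KO, so its signs are not an observation separate from those of RA in KO livers.

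Averaged over genotypes, the RA diet gave positive differences for 17 of 17 ER genes, with a median of 0.19 against -0.02 over all genes. This count holds for the probe sets used here, since further probe sets were negative for Hyou1 (-0.35 and -0.05) and Pdia4 (-0.08). No member was called, against 2.34% of all genes, and 8 had an unadjusted p under 0.05 by limma (22.9%, against 13.9%). Edem1 came closest with 0.36 ± 0.09 (adjusted p = 0.0628), followed by Atf4 with 0.27 ± 0.08 (adjusted p = 0.133) and Sesn2 with 0.47 ± 0.15 (adjusted p = 0.156). Creld2 differed by 0.61 ± 0.27 (adjusted p = 0.337) and Phgdh by -0.21 ± 0.07 (adjusted p = 0.193). Without KO 1, 14 of 17 ER genes were positive.

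Array by array, the median level of the ER genes varied more than that of the ATF4 genes. The median deviation of the 17 ER genes from their means was 0.25, -0.04 and -0.19 on the WT arrays and -0.01, 0.20 and 0.04 on the WT_RA arrays. It was -0.50, 0.15 and -0.25 on the KO arrays and 0.18, 0.27 and 0.07 on the KO_RA arrays. The SD within groups was 0.21. The arrays of each pair of groups overlapped, and all 3 KO_RA arrays were above 0. For the 15 ATF4 genes the median deviation stayed between -0.11 and 0.09 on every array, with an SD within groups of 0.06, and differences of both signs stood side by side in each comparison.

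**Figure D4:**
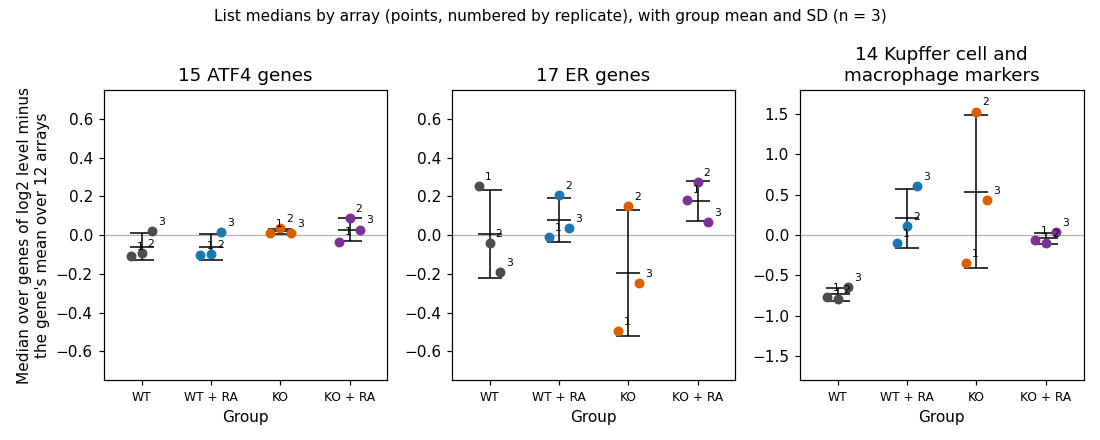
Median over genes of the log2 level minus each gene's mean over the 12 arrays, for the 15 ATF4 genes, the 17 ER genes and 14 Kupffer cell markers, by group (points are arrays numbered by replicate, bars the mean and SD, n = 3, with a wider axis for the markers). The ER genes range from -0.50 on KO 1 to 0.27 on KO_RA 2, while the ATF4 genes stay near 0 and the markers are highest on KO 2.

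Further probe sets existed for 22 of the members, 39 in all. Their differences had the sign of the probe set used here in 33 of 39 cases for KO against WT, 27 for RA in WT, 32 for RA in KO and 29 for KO_RA against WT_RA. The count was 32 for the difference of RA effects and 35 for RA averaged over genotypes. A filter that kept genes above the median of all probe sets left 30 of 35 members, and Psat1 was the dimmest of those it removed.

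Other genes of both pathways were read from wider lists. Of 21 further ATF4 targets, 2 passed in KO against WT livers (9.52%, against 1.32% of all genes), in opposite directions. Slc1a5, a glutamine and neutral amino acid carrier, rose by 0.45 ± 0.10 (adjusted p = 0.0487), and again by 0.64 ± 0.10 in KO_RA against WT_RA livers (adjusted p = 0.00453). Cebpb, the C/EBP factor that can pair with ATF4, fell by 0.87 ± 0.18 in KO livers (adjusted p = 0.0423) and rose by 1.14 ± 0.18 with RA in KO livers (adjusted p = 0.0252), 2 comparisons that share the KO arrays. In KO_RA against WT_RA livers 3 of the 21 rose (14.3%, against 3.95% of all genes called in either direction), Slc1a5 with Atf5, a factor close to ATF4 (1.16 ± 0.23, adjusted p = 0.0177), and Vldlr, a lipoprotein receptor (1.12 ± 0.16, adjusted p = 0.0029). With RA in WT livers 0 of the 21 passed by limma, and 7 had an unadjusted p under 0.05 (33.3%, against 11.7% of all genes). With RA in KO livers 1 of the 21, Cebpb, passed by limma (against 0.5% of all genes). The median there was 0.12 (against -0.03 over all genes), with 17 of 21 positive (81%, against 43%). Of the 21, 5 were higher there at an unadjusted p under 0.05 by limma (against 6.12% of all genes). With RA averaged over genotypes 2 of the 21 rose by limma (9.52%, against 2.34% of all genes called in either direction). They were Cebpb (0.72 ± 0.13, adjusted p = 0.0127) and Slc1a5 (0.39 ± 0.07, adjusted p = 0.0134).

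Aminoacyl-tRNA synthetase genes, many of them ATF4 targets, gave 0 calls by limma among 12 measured in each comparison. They gave at most 3 at an unadjusted p under 0.05 (25%, in KO against WT livers, where all genes gave 16.3%), with medians of -0.17 for KO against WT and 0.13 for RA in KO livers. The 4 measured genes of eIF2 kinases and eIF2 regulation and the 16 of the translocon and signal peptidase also gave 0 calls by limma. The former gave at most 2 at an unadjusted p under 0.05, with RA in WT livers (against 11.7% of all genes) and in KO_RA against WT_RA livers (against 17.8%), and the latter at most 3 (18.8%, in KO against WT livers, against 16.3%). The 15 further genes of ER-associated degradation gave 0 calls and at most 4 at an unadjusted p under 0.05 (26.7%, among others for RA in KO livers, against 14%), where their median was 0.17 with 13 of 15 positive. Of 14 further folding genes, 1 passed in KO_RA against WT_RA livers, where 3.95% of all genes did. This was Uggt1, which marks unfolded glycoproteins for calnexin and rose by 0.45 ± 0.11 (adjusted p = 0.0405). With RA averaged over genotypes 1 of the 14 passed, against 2.34% of all genes. This was Fkbp11, a prolyl isomerase, which fell by 0.56 ± 0.12 (adjusted p = 0.0372). Of 5 genes of ER-tethered factors and their proteases, 1 passed in KO_RA against WT_RA livers, against 3.95% of all genes. This was Creb3l3, a liver factor cleaved like ATF6, which fell by 0.59 ± 0.12 (adjusted p = 0.0184). The cytosolic heat shock genes, which serve protein folding outside the ER, had 12 of 12 negative differences in that comparison and a median of -0.36. Among them 1 of 12 passed (against 3.95% of all genes), Hspb1, a small heat shock protein, at -0.86 ± 0.13 (adjusted p = 0.00439).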

How the data were processed

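The authors deposited 1 log2 value per probe set and array. The submitters' notes list RMA, which corrects background, equalizes the arrays' distributions by quantiles and summarizes probes by median polish, together with Partek 6.11. In the paper MAS5 is given instead, but the floor and the equal medians of the deposited arrays resemble log2 RMA. Such values compress differences of dim probe sets. Of 22690 probe sets, 64 controls, 691 with several symbols and 1555 with none were left out, and the probe set with the highest mean stood for each of 12393 genes. Groups came from the sample titles, which call the 3 samples of a group biological replicates.

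Differences between groups were estimated by limma 3.58.1 (R 4.3.3) from a model of the 4 group means over the 12 arrays (8 residual degrees of freedom, two-sided, Benjamini-Hochberg adjustment over all genes of a comparison, called under 0.05), after it was tested on simulated data. Further probe sets were tested over all single-symbol probe sets. The number of arrays limits the precision.

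The members and gene lists were chosen with earlier results of these data known, so no list was tested as a set. Named are all members, with full statistics for called members and for those without overlap between KO and WT, and up to 4 called genes of each further pathway list and comparison. Alternatives were a replicate block, a further quantile normalization, a filter on dim probe sets, the mean of a gene's probe sets, array weights, a variance trend, the 2 groups alone, each array left out and both WT_RA 3 and KO 1 left out.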

Additional observations from a re-analysis of the deposited data

Results flagged for a closer look

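Further probe sets of 3 members, outside the 1 probe set per gene used above, passed limma's test over all probe sets. For Asns, the further probe set was higher in KO than in WT livers by 3.23. For Trib3, it was lower in WT_RA than in WT livers, with a difference of -1.21. For Hyou1, a further probe set differed by -0.97 with RA in WT livers and by 1.28 between KO_RA and WT_RA livers, and another differed by 1.02 in the latter comparison.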

How the results depend on the processing

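Asns was called in KO against WT livers under every alternative run, and Slc7a5 lost its call in 7 of them. The sample titles do not say whether same-numbered replicates were paired across groups. Of 18 such pairs, 5 had correlated deviations over 0.1 (range -0.46 to 0.27), which does not settle it with 3 arrays per group. With the replicate block the members called in KO against WT livers numbered 1, with Slc7a5 at an adjusted p of 0.0600 by limma, while no other count changed. The block could not change a difference or a median, since every group held the same replicate numbers. The count for KO against WT livers was 1 with only these groups fitted, 4 with array weights (from 0.320 to 7.12) and 1 to 2 with an array left out. Counts of 0 became 1 with the mean of all probe sets for RA in WT, KO_RA against WT_RA and the difference of RA effects (Hyou1 each time) and for RA averaged (Edem1). With array weights they became 4 for RA in WT, 1 for RA in KO, 3 for KO_RA against WT_RA and 6 for RA averaged. They became 2 for KO_RA against WT_RA with only those groups fitted, and lay between 0 and 1 with an array left out there and for RA averaged. The shares of all genes called in these alternative fits are not given here. The counts therefore describe the processing and are not read as a result about the members.

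The median of the ATF4 genes moved to 0.15 with array weights for RA in WT, to 0.0238 with the mean of probe sets for KO against WT (0.0236 to 0.102 with an array left out), and to 0.0434 and 0.0900 without dim genes for RA in KO and RA averaged. Without WT_RA 3 and KO 1 it was 0.16 for KO_RA against WT_RA (0.0783 to 0.166 with 1 array left out) and -0.0151 for the difference of RA effects (-0.141 to -0.00554). The median of the ER genes in KO against WT livers was 0.0146 without those arrays and ran from -0.372 to 0.0146 with 1 array left out. The cause of these shifts was not tested beyond the arrays left out. With 3 arrays per group and the spread of the ER genes, differences of the size of their medians did not pass.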
